A study of Homo sapiens with 4 samples.

Results

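The EGF receptor family and its ligands were followed as 10 genes, chosen by name from the 26485 gene identifiers of the deposited tables. They were the receptor genes EGFR, ERBB2 and ERBB3, the EGF receptor ligand genes HBEGF, AREG, EREG, TGFA and BTC, the neuregulin gene NRG1, and ERRFI1, which encodes an inhibitor of the receptor kinases. All 10 were found, each as 1 row per table. RNA came from 8505C and SW1736, established human cell lines derived from anaplastic thyroid cancer. Each line was grown for 24 h with 1.5 µM DHT, which stands here for dihydrotanshinone, a plant diterpenoid from Salvia, not for dihydrotestosterone, or with the DMSO vehicle. This gave 4 libraries, 8505C with DHT, 8505C with DMSO, SW1736 with DHT and SW1736 with DMSO, with 1 library per group. No difference within a line or between lines at 1 treatment therefore has a replicate check or a p-value, and with 1 line of each kind no spread is known for any level. Levels are the deposited TPM, a share of all transcripts scaled by length. Levels of different genes are compared on that scale only, and for NRG1, ERBB2 and ERBB3 the TPM lie above what the mean read depth of the gene gives, as described further on.

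Receptors of this family sit in the cell membrane and, once a ligand binds, pair with each other and phosphorylate their partners. EGFR binds the ligands encoded by HBEGF, AREG, EREG, TGFA and BTC, which are made as membrane precursors and cut free by proteases of the ADAM family. ERBB3, a receptor with little kinase activity of its own, binds neuregulins, and ERBB2 has no known soluble ligand and serves as the preferred partner of the others. The signal runs through RAS to the MAP kinases ERK and through PI3 kinase, and cells answer it by transcribing several of the ligands and ERRFI1, so the family holds both a forward and a feedback loop.

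Library depth, from the ratio of deposited coverage to FPKM, was 4.15 and 3.27 Gb of aligned sequence in 8505C with DHT and DMSO, and 3.85 and 3.67 Gb in SW1736. Read numbers are not known, so no counting interval is given, and the mean read depth over a gene is given where it is low. As to the labelled cell type, 3 of 7 thyroid follicular markers reached a mean of 1 TPM, and these went opposite ways between the lines. NKX2-1 was at 174 and 69.8 TPM in 8505C with DHT and DMSO and listed at 0 in SW1736. PAX8 was at 0.240 and 0.282 TPM in 8505C and at 117 and 87.1 TPM in SW1736, and FOXE1 at 0 and 0.101 TPM in 8505C and at 22.3 and 60.6 TPM in SW1736. TSHR was listed at 0 throughout. Of 6 epithelial markers, KRT7, KRT8 and KRT18 lay between 403 and 2081 TPM in every library, KRT19 was listed at 0 in 8505C and stood at 883 and 607 TPM in SW1736, and CDH1 and EPCAM stayed under 0.2 TPM. Of the other lists, 2 of 5 immune and none of 4 melanocyte and neural markers reached a mean of 1 TPM. Of 4 endothelial markers 2, CDH5 and TIE1, did so, as did all 3 mesenchymal markers and 1 of 5 fibroblast markers, COL1A1. The mesenchymal markers summed to 4352 and 3533 TPM in 8505C with DHT and DMSO and to 14312 and 11068 TPM in SW1736. COL1A1 was at 0.773 and 0.496 TPM in 8505C and at 146 and 350 TPM in SW1736. The endothelial markers summed to 207 and 171 TPM in 8505C with DHT and DMSO and to 0.118 and 0.0427 TPM in SW1736. Their part in the differences between the lines was not tested.

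EGFR was the most abundant receptor mRNA in every library. Its gene lies on chromosome 7, 55019032 to 55207338 (hg38, plus strand; all gene coordinates are hg38). EGFR stood at 57.0 and 64.2 TPM in 8505C with DHT and DMSO, and at 74.1 and 116 TPM in SW1736 with DHT and DMSO. ERBB2 (chromosome 17, 39688084 to 39728662) stood at 50.3 and 49.0 TPM in 8505C with DHT and DMSO, and at 19.3 and 38.9 TPM in SW1736. In TPM the 2 genes were thus closer to each other in 8505C than in SW1736. Mean read depth set them farther apart in 8505C, at 84.7 for EGFR and 35.0 for ERBB2 with DHT and at 73.3 and 26.6 with DMSO. ERBB3 (chromosome 12, 56080025 to 56103507) was low throughout, at 2.79 and 0.839 TPM in 8505C with DHT and DMSO and at 2.19 and 4.84 TPM in SW1736. ERBB4, the remaining receptor of the family and not among the 10 genes, did not pass 0.0820 TPM in any library. EGFR held 51.8% and 56.3% of the summed TPM of the 3 receptor genes in 8505C with DHT and DMSO, and 77.5% and 72.7% in SW1736, shares that hold for TPM and not for read depth.

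HBEGF was the leading EGF receptor ligand mRNA of both lines with DMSO, and the lines differed in the others. In 8505C, AREG, which encodes amphiregulin, stood at 58.5 TPM with DHT and 34.5 TPM with DMSO, and HBEGF, which encodes heparin-binding EGF-like growth factor, at 40.6 and 48.0 TPM. In SW1736 AREG was at 0.614 and 0.305 TPM, and HBEGF was the leading ligand at 88.7 TPM with DHT and 14.1 TPM with DMSO. TGFA, which encodes transforming growth factor alpha, was the second ligand of SW1736 at 3.37 and 5.63 TPM with DHT and DMSO, and stood at 0.989 and 0.704 TPM in 8505C. EREG, which encodes epiregulin, was at 6.67 and 4.57 TPM in 8505C and at 0.934 and 0.896 TPM in SW1736. BTC, the betacellulin gene, was at 0.224 and 0.458 TPM in 8505C, with mean read depths of 0.412 and 0.653, and was listed at 0 in both SW1736 libraries. Summed over these 5 genes, ligand mRNA came to 107 and 88.2 TPM in 8505C with DHT and DMSO, and to 93.6 and 21.0 TPM in SW1736. HBEGF held 38.0% and 54.5% of that sum in 8505C and 94.7% and 67.4% in SW1736, while AREG held 54.7% and 39.1% in 8505C and 0.657% and 1.46% in SW1736.

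**Figure D1:**
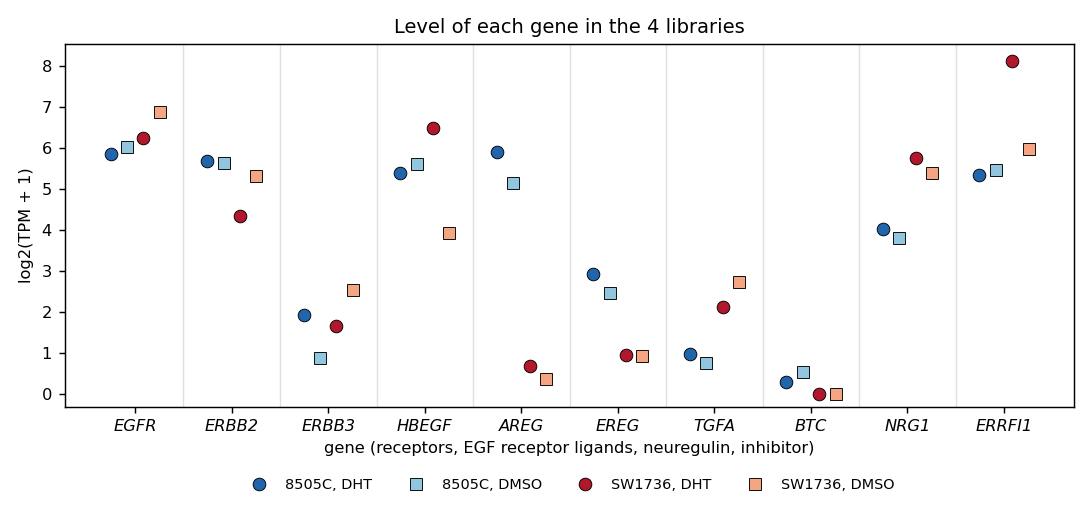
Level of the 10 genes as log2(TPM + 1) in the 4 libraries, each marker being 1 library (circles DHT, squares DMSO; no error bars, since each group is 1 library). AREG and EREG are higher in both 8505C libraries than in SW1736, and TGFA and NRG1 are higher in both SW1736 libraries than in 8505C. HBEGF and ERRFI1 stand out in SW1736 with DHT at 88.7 and 278 TPM.

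**Figure D2:**
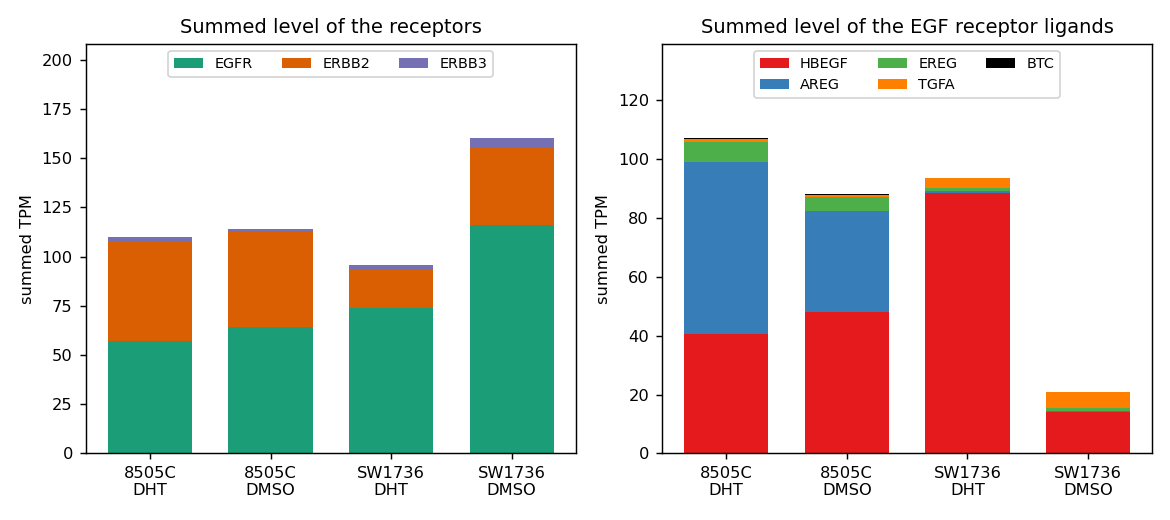
Summed TPM of the 3 receptor genes (left) and of the 5 EGF receptor ligand genes (right) in each library, stacked by gene. The ligand sum is 93.6 TPM in SW1736 with DHT and 21.0 TPM with DMSO and is almost all HBEGF with DHT, whereas AREG and HBEGF share it in 8505C.

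The first comparison asks how DHT altered these mRNAs in SW1736. HBEGF and ERRFI1 were far higher with DHT, and all 3 receptor mRNAs were lower without being called at 2-fold. HBEGF (chromosome 5, 140332843 to 140346603, minus strand) stood at 88.7 TPM with DHT, against 14.1 TPM with DMSO, a log2 fold of 2.57. Folds here are differences of log2(TPM + 1), which understates the fold of low genes. ERRFI1 (chromosome 1, 8011719 to 8026333, minus strand), whose protein binds the EGFR kinase domain and promotes turnover of the receptor, stood at 278 TPM with DHT, against 61.6 TPM with DMSO, a log2 fold of 2.16. It was the most abundant of the 10 mRNAs in that library, above 95.2% of the genes tested, and with DMSO it lay above 74.9%. HBEGF ranked 81 and ERRFI1 114 from the highest fold among the 11723 protein-coding genes that averaged 1 TPM or more over the libraries, here the genes tested. These 2 were the members called at least 2-fold higher with DHT in SW1736, where 2.78% of all genes tested were. No member was called 2-fold lower, where 15.6% were. At 3-fold the same 2 members were higher and none lower, against 1.57% and 2.18% of all genes tested. At 1.5-fold EGFR, ERBB2, ERBB3 and TGFA joined on the lower side, where 38.2% of all genes tested lay, beside 4.7% on the higher side. A TPM is measured on a whole culture, so more transcript per cell and more cells with the transcript cannot be told apart.

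Most genes were displaced in this comparison: the median log2 fold of all genes tested was -0.42. With each library scaled to its median gene, 553 genes were 2-fold higher and 496 lower, in place of 326 and 1825. With FPKM the counts were 343 and 705. Ribosomal protein genes held 22.5% of TPM with DHT and 17.1% with DMSO in SW1736. Scaled without them and without non-coding genes, 371 genes were higher and 1538 lower, and the median was -0.33. Relative to the median of -0.42, HBEGF stood at 2.98 and ERRFI1 at 2.58. The mean read depth per base was 175 for HBEGF and 549 for ERRFI1 with DHT, and 22.8 and 99.2 with DMSO. Over the alternative settings the log2 fold ran between 2.29 and 2.98 for HBEGF and between 2.09 and 2.58 for ERRFI1.

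The sequences before the starts of these 2 genes are shown because both were high in the same library. They are RefSeq promoter windows of build GRCh38.p14, 250 bases before to 50 after the start of the gene, on the strand of the gene. Of the 10 genes, 8 had a window. Capitals mark matches, on either strand, to 7 motifs. These were the AP-1 site TGANTCA, the cyclic AMP response element TGACGTCA and the GC box GGGCGG. The others were the TATA-like motif TATANA, the CCAAT box, the heat shock element GAANNTTC and the CArG box. Overlapping matches run together.
HBEGF, chr5:140346554-140346853, minus strand: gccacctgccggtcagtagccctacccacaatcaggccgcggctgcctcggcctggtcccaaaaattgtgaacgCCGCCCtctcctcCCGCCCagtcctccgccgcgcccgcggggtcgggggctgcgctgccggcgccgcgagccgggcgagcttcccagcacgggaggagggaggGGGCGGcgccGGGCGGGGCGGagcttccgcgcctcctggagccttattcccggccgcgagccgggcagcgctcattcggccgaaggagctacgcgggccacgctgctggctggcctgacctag
ERRFI1, chr1:8026260-8026559, minus strand: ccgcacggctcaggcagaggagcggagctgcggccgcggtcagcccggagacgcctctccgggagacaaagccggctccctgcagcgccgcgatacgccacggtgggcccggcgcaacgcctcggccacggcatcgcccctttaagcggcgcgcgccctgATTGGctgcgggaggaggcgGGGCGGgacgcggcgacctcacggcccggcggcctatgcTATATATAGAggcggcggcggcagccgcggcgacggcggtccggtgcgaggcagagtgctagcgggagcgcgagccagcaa
The HBEGF window held 5 GC boxes and none of the other motifs, and the ERRFI1 window held 1 GC box, 1 CCAAT match and 3 overlapping TATA-like matches just before the start. Both were rich in G and C, at 75.0% and 74.7%, against a median of 62.3% over 22199 windows of protein-coding genes. A GC box occurred in 56.3% of those windows, CCAAT in 34.7% and a TATA-like run in 15.2%. No AP-1 site, heat shock element or CArG box was found in either window, motifs that 6.15%, 5.67% and 1.25% of all windows held. A match describes letters and is not shown to be a binding site.

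The receptor mRNAs of SW1736 lay lower with DHT, as did most genes tested, and all 3 lay below the median gene. EGFR was at 74.1 TPM with DHT, against 116 TPM with DMSO (log2 fold -0.64, or -0.23 relative to the median gene). ERBB2 was at 19.3 TPM with DHT, against 38.9 TPM with DMSO (log2 fold -0.97, or -0.55 relative to the median gene). Its plain TPM ratio, DMSO over DHT, was 2.01, and the added 1 TPM kept ERBB2 short of the 2-fold call. ERBB3 was at 2.19 TPM with DHT, against 4.84 TPM with DMSO (log2 fold -0.87, plain ratio 2.21), at mean read depths of 2.03 and 3.24. The displacement varied with mRNA length: with genes split into 3 equal groups by mRNA length, the median log2 fold was -0.71 among the longest, -0.42 among the middle group and -0.17 among the shortest. EGFR and ERBB2 are among the longest and ERBB3 is in the middle group, and the part of length in their values was not tested. ERRFI1 is among the shortest and HBEGF in the middle group. Split by GC content instead, the median log2 fold was -0.63 in the lowest group, -0.42 in the middle and -0.22 in the highest. ERBB2 is in the highest GC group and EGFR, ERBB3, HBEGF and ERRFI1 are in the middle one. The part of GC content was not tested.

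The other ligands of SW1736 were not called at 2-fold either. TGFA was at 3.37 TPM with DHT, against 5.63 TPM with DMSO (log2 fold -0.60). NRG1 (chromosome 8, 31639752 to 32765040), which encodes ligands of ERBB3 and ERBB4, was at 52.8 TPM with DHT, against 40.8 TPM with DMSO (log2 fold 0.37, or 0.78 relative to the median gene). EREG and AREG stayed under 1 TPM in both libraries, with log2 folds of 0.03 and 0.31 and mean read depths between 0.492 and 1.84. Of the 9 members with a fold, 5 were above and 4 below 0 and the median was 0.03, beside -0.42 for all genes tested.

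In 8505C the same dose and time went with small differences. ERBB3 was the only member called at 2-fold, at 2.79 TPM with DHT, against 0.839 TPM with DMSO (log2 fold 1.04). In this comparison 0.273% of all genes tested passed 2-fold upward and 0.162% downward. At 1.5-fold AREG joined ERBB3, with 1.27% of all genes tested higher and 0.529% lower. At 3-fold no member remained, with 0.0597% and 0.0853%. The mean read depth of ERBB3 was 2.33 with DHT and 1.11 with DMSO, and the deposited FPKM was 2.2 times what this depth gives with DHT and 1.08 times with DMSO. From coverage divided by library depth the log2 fold of ERBB3 was 0.22. From FPKM it was 0.71, and with a pseudocount of 5 it was 0.42, so the 2-fold call does not hold under any of these. They are not separate checks, since in each the added value weighs more than 1 does beside TPM. The FPKM were 1.24 with DHT and 0.367 with DMSO, and the plain TPM ratio was 3.32.

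AREG came next in 8505C, at 58.5 TPM with DHT, against 34.5 TPM with DMSO (log2 fold 0.75), and ranked 69 from the highest of 11723 genes. Its mean read depths were 108 and 49.2. EREG was at 6.67 TPM with DHT, against 4.57 TPM with DMSO (log2 fold 0.46, rank 288). Both mRNAs are among the genes of lowest GC content, of 3 equal groups, whose median log2 fold in 8505C was -0.11, beside 0.06 among those of highest GC content. HBEGF was slightly lower in 8505C, at 40.6 TPM with DHT, against 48.0 TPM with DMSO (log2 fold -0.24), and ERRFI1 was at 39.4 TPM with DHT, against 43.1 TPM with DMSO (log2 fold -0.13). The 2 genes that stood out in SW1736 thus had slightly lower values with DHT in 8505C, and the difference between the lines has no test with 1 library per group. EGFR (log2 fold -0.17), ERBB2 (0.04), NRG1 (0.23), TGFA (0.22) and BTC (-0.25) were all within 0.3 of 0. The median log2 fold of the 10 members was 0.13 in 8505C, beside -0.03 for all genes tested.

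**Figure D3:**
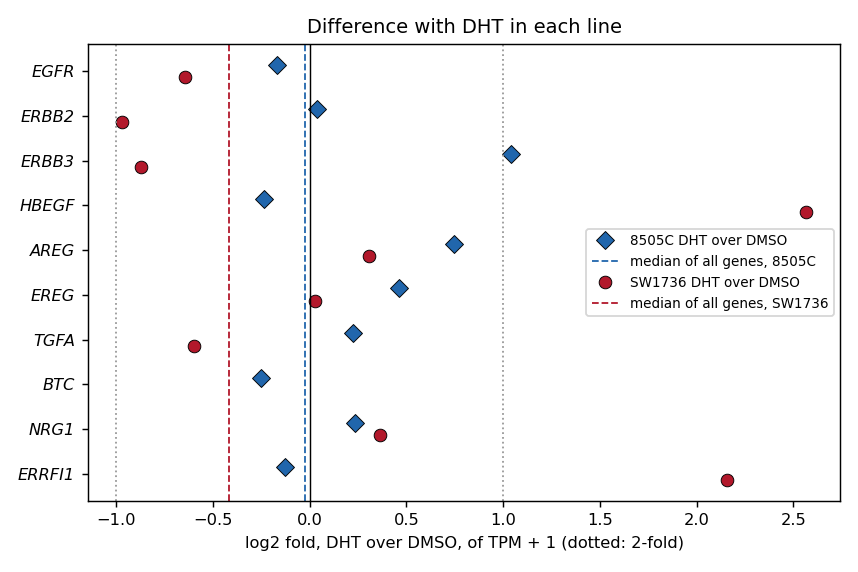
Log2 fold of TPM + 1 with DHT over DMSO for each gene in 8505C (diamonds) and SW1736 (circles), 1 library per group and no error bars; BTC has no fold in SW1736. Dashed lines are the medians of 11723 genes (-0.03 in 8505C and -0.42 in SW1736). HBEGF and ERRFI1 in SW1736 and ERBB3 in 8505C lie beyond the dotted 2-fold lines.

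A limma fit over all 4 libraries took the lines as replicates of the treatment, with 1 residual degree of freedom. It called 2 of 11723 genes higher with DHT (0.0171%) and none lower, KLF6 and SERF1A, and no member. They are named because the count is small, after their values were seen, and SERF1A has a near-identical copy that can share its reads. The p-values describe only these 4 libraries, with errors pooled mostly over all genes. The average log2 fold in the limma fit was 1.16 ± 0.46 (SE) for HBEGF, with an adjusted p of 0.756, and 1.02 ± 0.43 for ERRFI1, with the same adjusted p. Those 2 were the members under an unadjusted p of 0.05 in limma, as were 726 of all genes tested. With the mean-variance trend on, limma called 119 of the 11723 genes, 95 higher and 24 lower, HBEGF and ERRFI1 among the higher ones. Its prior degrees of freedom were then infinite, so errors were set by the trend over all genes alone. Without the trend the prior degrees of freedom were 19.5, beside 1 residual, so those errors also came mostly from all genes.

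The vehicle-treated lines were compared next, and the family differed between them gene by gene. With DMSO, 3 members were at least 2-fold higher in 8505C than in SW1736, where 9.97% of all genes tested were, and 3 were at least 2-fold lower, where 12.6% were. At 3-fold 2 members were higher (5.55% of all genes tested) and 3 lower (6.11%), and at 1.5-fold 3 were higher (18.9%) and 4 lower (24.2%). AREG was the farthest apart, at 34.5 TPM in 8505C, against 0.305 TPM in SW1736 (log2 fold 4.76, rank 61 of 11723). HBEGF was at 48.0 TPM in 8505C, against 14.1 TPM in SW1736 (log2 fold 1.70). EREG was at 4.57 TPM in 8505C, against 0.896 TPM in SW1736 (log2 fold 1.55). The lower members were TGFA (log2 fold -1.96), ERBB3 (-1.67) and NRG1 (-1.59). EGFR was at 64.2 TPM in 8505C, against 116 TPM in SW1736 (log2 fold -0.85), and ERBB2 at 49.0 TPM in 8505C, against 38.9 TPM in SW1736 (0.33). AREG and EREG passed the filter on low values through 8505C alone and TGFA through SW1736 alone, so these 3 had to differ, and BTC did not pass it.

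With DHT in both lines, HBEGF and ERBB3 took the other direction. It was at 40.6 TPM in 8505C, against 88.7 TPM in SW1736 (log2 fold -1.11), whereas with DMSO its log2 fold was 1.70. ERBB3 was at 2.79 TPM in 8505C, against 2.19 TPM in SW1736 (log2 fold 0.25, but -0.13 relative to the median gene), whereas with DMSO its log2 fold was -1.67. ERRFI1 was at 39.4 TPM in 8505C, against 278 TPM in SW1736 (log2 fold -2.79, rank 287 from the lowest). ERBB2 was at 50.3 TPM in 8505C, against 19.3 TPM in SW1736 (log2 fold 1.34, or 0.96 relative to the median gene, short of 2-fold). AREG (5.20) and EREG (1.99) stayed higher and TGFA (-1.14) and NRG1 (-1.72) lower in 8505C. In all 3 members were at least 2-fold higher, where 24.7% of all genes tested were, and 4 at least 2-fold lower, where 10.6% were. Scaled to the median gene, the counts over all genes were 1701 higher and 1903 lower in place of 2893 and 1245. At 3-fold 2 members were higher (10.8% of all genes tested) and 2 lower (5.97%), and at 1.5-fold 3 were higher (40.9%) and 4 lower (17.1%). The median log2 fold of all genes tested was 0.37 here, against -0.05 between the DMSO libraries. The comparisons between lines and within lines share their libraries.

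**Figure D4:**
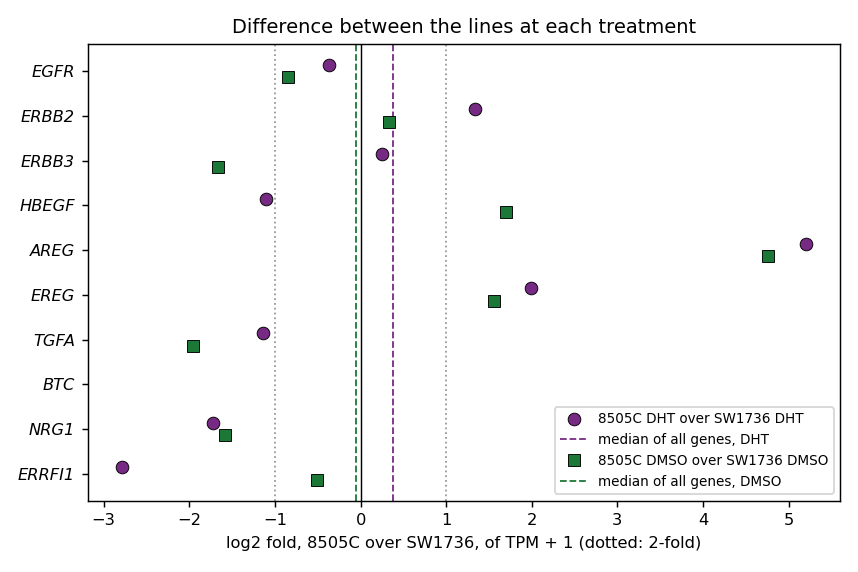
Log2 fold of TPM + 1 in 8505C over SW1736 for each gene, with DHT (circles) and with DMSO (squares), 1 library per group and no error bars; BTC, listed at 0 in SW1736, has no fold. Dashed lines are the medians of 11723 genes (0.37 with DHT and -0.05 with DMSO). HBEGF lies at -1.11 with DHT and at 1.70 with DMSO, while AREG is near 5 at both.

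Taking the treatments as replicates of the line, the limma fit called 1791 genes higher (15.3%) and 1369 lower (11.7%) in 8505C. Among them were NRG1, with an average log2 fold of -1.66 ± 0.34 (SE) and an adjusted p of 0.00093, and ERRFI1 (-1.65 ± 0.43, adjusted p 0.0062). From coverage divided by library depth, with 1 added, the log2 fold of NRG1 was -0.36 with DHT and -0.26 with DMSO. The added 1 understates that fold at the mean read depths of NRG1, 0.350 to 1.73. No limma fit was run on coverage. For AREG (4.98), EREG (1.77) and TGFA (-1.55) the averages are given without a p, since these genes entered through the line where they are high. ERBB2 (adjusted p 0.0947), ERBB3 (0.205), EGFR (0.208) and HBEGF (0.682) were not called by limma. ERRFI1 was no longer called with a pseudocount of 0.1 or with FPKM. ERBB2 was called with the trend on and with a pseudocount of 5, and EGFR with median scaling. With median scaling limma called 1830 genes higher and 2168 lower. For ERRFI1 the average covers log2 folds of -2.79 with DHT and -0.51 with DMSO, and for HBEGF and ERBB3 it covers opposite directions. The fit describes these 2 cultures at both treatments, and both libraries of a line can share the handling of that line.

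Position was a feature that 3 of the ligand genes shared. EREG (74365143 to 74388760), AREG (74445098 to 74455009) and BTC (74746238 to 74794672) lie next to each other on chromosome 4, with EPGN, the epigen gene, before them. The 4 genes span 486 kb, and no other gene of the tables lies between them. EPGN is an EGF receptor ligand gene outside the 10, and stood at 7.48 and 4.81 TPM in 8505C with DHT and DMSO and at 0.0550 and 0.207 TPM in SW1736. All 4 had higher values in both 8505C libraries than in either SW1736 library, though BTC remained under 0.5 TPM. The neighbours within 250 kb were lower in SW1736 in part. MTHFD2L, before EPGN, was at 7.86 and 8.12 TPM in 8505C and at 2.14 and 2.87 TPM in SW1736, and PARM1, after BTC, was at 1.42 and 1.32 TPM in 8505C and at 0 and 0.0365 TPM in SW1736. The chemokine gene CXCL2, farther out, was at 2.97 and 2.91 TPM in 8505C with DHT and DMSO and at 8.21 and 0.897 TPM in SW1736.

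**Figure D5:**
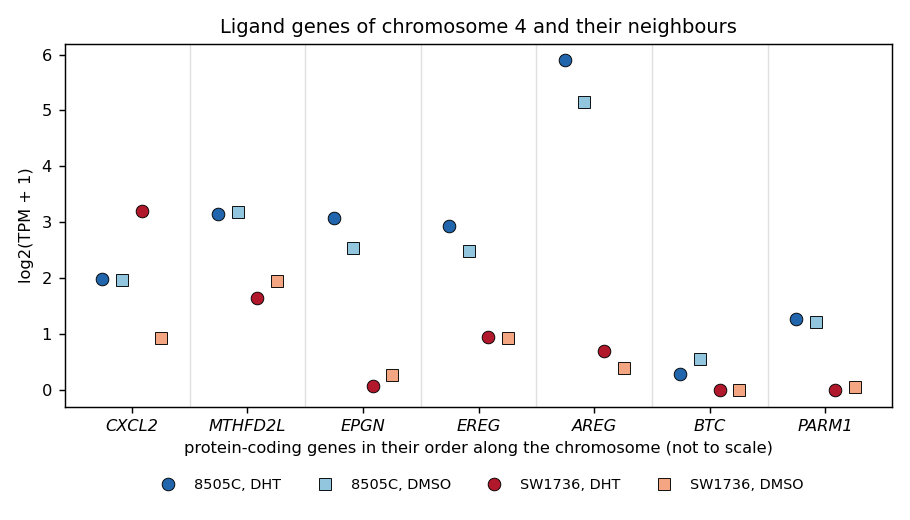
Log2(TPM + 1) of the EPGN, EREG, AREG and BTC genes of chromosome 4 and of the protein-coding genes within 250 kb, in chromosomal order and not to scale, each marker being 1 library. The 4 ligand genes are higher in both 8505C libraries than in both SW1736 libraries, most of all AREG at 58.5 and 34.5 TPM in 8505C.

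The promoter windows of AREG and EREG are shown because these mRNAs marked 8505C at both treatments, with capitals as above.
AREG, chr4:74444886-74445185, plus strand: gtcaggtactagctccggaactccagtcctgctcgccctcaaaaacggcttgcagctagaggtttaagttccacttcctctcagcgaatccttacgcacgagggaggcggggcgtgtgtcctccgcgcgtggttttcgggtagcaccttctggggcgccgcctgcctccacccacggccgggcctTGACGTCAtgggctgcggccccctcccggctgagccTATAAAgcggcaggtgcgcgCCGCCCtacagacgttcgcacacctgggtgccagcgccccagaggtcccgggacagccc
EREG, chr4:74364895-74365194, plus strand: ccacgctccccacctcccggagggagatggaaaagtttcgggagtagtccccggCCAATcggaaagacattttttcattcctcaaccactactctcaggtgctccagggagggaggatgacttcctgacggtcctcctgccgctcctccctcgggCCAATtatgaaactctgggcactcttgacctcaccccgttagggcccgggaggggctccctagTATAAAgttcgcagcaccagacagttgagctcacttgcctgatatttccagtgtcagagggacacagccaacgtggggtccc
The AREG window held the full cyclic AMP response element TGACGTCA, which 2.26% of the 22199 windows held, together with TATAAA and 1 GC box. The EREG window held TATAAA and 2 CCAAT matches. HBEGF, ERRFI1 and EREG had no match to the cyclic AMP response element in their windows. AREG and EREG were less rich in G and C than HBEGF and ERRFI1, at 66.3% and 57.7%.

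The deposited FPKM and the mean read depth kept no common ratio over the members. For HBEGF, AREG, EREG, BTC and ERRFI1 the deposited FPKM was what the mean read depth of the gene gives. For TGFA it was between 1.06 and 1.11 times that, for EGFR between 1.20 and 1.32 times and for ERBB2 between 2.61 and 2.65 times, with little difference between libraries. For NRG1, a gene of over 1 Mb with 10 basic coding transcripts in GENCODE 29, the FPKM was between 51.2 and 60.1 times what its depth of 0.350 to 1.73 reads gives. Coverage was chosen as an alternative after the data were seen. Here 1 was added to coverage divided by library depth, which understates folds at depths this low. The log2 fold of NRG1 between the lines was then -0.36 with DHT and -0.26 with DMSO in place of -1.72 and -1.59. That of ERBB3 with DMSO was -0.49 in place of -1.67. For NRG1 the factor was 51.2 in 8505C and 60.1 in SW1736 with DHT, and 52.6 and 54.8 with DMSO. Without the added 1, coverage thus gives NRG1 nearly the same difference between the lines as FPKM. For ERBB3 with DMSO the factor was 1.08 in 8505C and 2.41 in SW1736. The cause of the gaps between FPKM and coverage was not tested. Of the genes that overlap a member, EGFR-AS1, antisense to EGFR, was at most 0.510 TPM and MIR4728, within ERBB2, at most 1.73 TPM, and the counting is not stated to use strand.

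Other genes of the pathway were taken as fixed lists, counted where they passed the same filter. In 8505C no gene of the 5 lists of sheddases, adaptors, RAS to ERK, receptor brakes and endocytosis was 2-fold apart with DHT. In SW1736 the counts of each list stand beside 15.6% of all genes tested at least 2-fold lower and 2.78% at least 2-fold higher, and no list is set apart from them. Of 10 sheddases and partners 2 were at least 2-fold lower and none higher (median -0.48): ADAM10, a protease that cuts EGF receptor ligands free, was at 32.8 TPM with DHT and 89.0 TPM with DMSO, and ADAM9 at 72.7 and 165 TPM. Of 18 adaptors and effectors 4 were lower and none higher (median -0.56). They were the RAS exchange factors SOS1 (log2 fold -1.10) and SOS2 (-1.06), the phosphatase gene PTPN11 (-1.43) and PIK3CB (-1.26), a catalytic subunit of PI3 kinase. In the list from RAS to ERK, the RAS GTPase activator genes RASA1 (-1.50) and NF1 (-1.43) were at least 2-fold lower.

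Among 13 receptor brakes tested, 1 was higher and 4 lower in SW1736 (median -0.78). SOCS3, a suppressor of cytokine signalling, was higher at 36.5 TPM with DHT, against 11.5 TPM with DMSO (log2 fold 1.58). The lower ones were CBL (-1.01), a ubiquitin ligase of activated EGFR, LRIG3 (-1.03), SOCS4 (-1.33) and the receptor phosphatase gene PTPRJ (-1.02). Of 14 endocytosis genes 1 was lower, the deubiquitinase gene USP8 (-1.08), and none higher (median -0.43). The median of all genes tested was -0.42, so the medians of the lists for sheddases and endocytosis lay within 0.1 of it. Of the 6 other members of the family, EPGN was the only one tested, and ERBB4, EGF, NRG2, NRG3 and NRG4 were at most 0.420 TPM in every library.

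The genes most like each member were taken over 3 log2 differences, DHT over DMSO in each line and 8505C over SW1736 with DMSO, among the 9762 protein-coding genes averaging 5 TPM or more. Nearest to HBEGF were the circadian repressor gene PER1 (distance 0.50) and the transcriptional co-regulator gene CITED2 (0.63). PER1 was at 24.8 TPM in SW1736 with DHT, against 2.16 TPM with DMSO, and at 9.32 and 9.61 TPM in 8505C. Nearest to ERRFI1 were MXD1 (0.23), which encodes a MAX-binding repressor, and NFKBIZ (0.26), which encodes an atypical inhibitor of NF-kB. NFKBIZ was at 23.3 TPM in SW1736 with DHT, against 5.50 TPM with DMSO, and at 3.15 and 3.52 TPM in 8505C. Nearest to AREG were TM4SF18 (0.53) and the transcription factor gene GATA2 (0.53), both at or near 0 in SW1736. EREG lay nearest to POLM (0.13) and EFNB1 (0.20), EGFR to SLC9A8 (0.06) and SPIN2B (0.07), ERBB2 to MBLAC2 (0.03) and RBFOX2 (0.03), ERBB3 to TP53RK (0.36) and PILRB (0.44), TGFA to PTPRE (0.12) and ZDHHC14 (0.14), and NRG1 to SLX1A (0.15, summed over 2 rows) and ZNF296 (0.17). Small distances were common for genes near the middle of the range, and likeness over 3 differences says nothing of shared control.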

How the data were processed

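mRNA libraries were made with the Universal Plus mRNA-Seq kit from RNeasy RNA of 8505C and SW1736 cells, per the labels' protocols. bcl2fastq 2.20, StringTie and hg38 are named in the submitters' processing notes. For the aligner and annotation the name is not given in the sources used here. TPM, as the authors deposited them, add up to 1000000 in each library, so a gain of some mRNAs lowers all others. The authors also deposited FPKM, scaled to length and to mapped fragments. Coverage as deposited is a gene's mean read depth, not scaled by library, and its commonest ratio to FPKM gave the depth.

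Rows of 1 identifier were summed. Of 26485 identifiers 25404 were matched to RefSeq or GENCODE 29 and 19083 were protein-coding. Folds are differences of log2(TPM + 1), called at 2-fold, over the 11723 protein-coding genes averaging 1 TPM or more. limma 3.58.1 in R 4.3.3 (two-sided, Benjamini-Hochberg over all genes, no trend) was tested on simulated data. Other steps used Python 3.11.15 and pandas 2.3.3. Members, lists, motifs and tests were chosen with earlier results of these data known. Named were the 10 genes, listed pathway genes at 2-fold with DHT, other family members, and the 2 nearest genes by pattern. The alternatives were other pseudocounts, filters, thresholds, scalings, FPKM and, added after the data were seen, coverage. Some results of the gene lists are not reported here.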

Additional observations from a re-analysis of the deposited data

Results flagged for a closer look

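In 5 members the value moved one way with DHT in SW1736 and the other way in 8505C, as in 36.9% of all genes tested. With 1 library per group none of these differences between the lines was tested. HBEGF had a log2 fold of 2.57 in SW1736 and -0.24 in 8505C, and ERRFI1 had 2.16 and -0.13. ERBB3 had -0.87 in SW1736 and 1.04 in 8505C, at mean read depths of 1.11 to 3.24. ERBB2 had -0.97 in SW1736 and 0.04 in 8505C, and TGFA had -0.60 and 0.22. Relative to the median gene of each line, all 5 kept opposite signs, with ERBB2 at -0.55 and 0.07, TGFA at -0.18 and 0.25, and ERBB3 at -0.45 and 1.07.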

How the results depend on the processing

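Of 222 member folds recomputed under the alternatives that keep the 2-fold threshold, 205 kept their side of it, 15 no longer passed it, 2 newly passed it and 0 called values changed sign. In SW1736 the members 2-fold apart with DHT numbered 2, but 4 with a pseudocount of 0.1 (ERBB2 and ERBB3 lower) and 6 at 1.5-fold. In 8505C the number was 1, but 0 with a pseudocount of 5, with a mean of at least 5 TPM, with FPKM, at 3-fold and with coverage, and 2 at 1.5-fold. Between the lines with DMSO it was 6, but 3 with a pseudocount of 5 and 3 with a mean of at least 5 TPM. It was 4 with coverage, 5 at 3-fold and 7 at 1.5-fold. Between the lines with DHT it was 7, but 4 at 3-fold and 4 with coverage. It was 5 with a pseudocount of 5, 5 with a mean of at least 5 TPM, and 6 with median scaling or FPKM. Coverage divided by library depth also had 1 added, which understates the folds of genes of low depth. For the treatment, limma called 2 genes, but 119 with the trend on, 1 with median scaling, 0 with a pseudocount of 0.1 (246 under an unadjusted p of 0.05) and 0 with FPKM (243). For the line it called 3160, but 2057 with a pseudocount of 0.1. A stricter filter or threshold leaves fewer genes by construction, and the cause of the other shifts was not tested. No replicate could be left out with 1 library per group. The limma treatment fit has the cell line as a block, so it compares DHT with DMSO within each line, and the labels give no replicate numbers that would pair libraries further. Low read depth limits ERBB3, BTC and NRG1 in both lines, AREG and EREG in SW1736, and TGFA in 8505C.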
